A study of Mus musculus with 9 samples.

Results

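The aminoacyl-tRNA synthetases are the 36 genes described here, of 24044 named rows of the RNA-seq expression table. A row was taken when its gene name equalled that of a listed synthetase, and each of the 36 stood on 1 row. Names ending in 2 were taken as mitochondrial enzymes (16 genes), Gars, Kars and Qars as bifunctional (3 genes) and the others as cytosolic (17 genes). All 36 passed the filter on low values, an FPKM (fragments mapped to a gene, scaled to its transcript length and to the library's mapped fragments) of at least 1 in at least 3 libraries.

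The cells were mouse embryonic stem cells from the lines Oct4 GiP, v6.5 and E14, all established lines, at passages 20 to 23. They spent 2 weeks on gelatin in Serum, in 2i or as Paused cells. The Paused cells received 200 nM INK128, an inhibitor of the mTor kinase, throughout those 2 weeks. The labels do not give the composition of the 3 media, nor which medium the Paused cells were kept in. Each line gave 1 library per condition, so 9 libraries made 3 groups of 3, each from 250 ng of total RNA with mRNA purification and ERCC spike-in RNA. A replicate is therefore a cell line, and nothing states a second culture of any line.

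Each synthetase joins an amino acid to the tRNAs that carry its anticodons, at the cost of ATP, and so supplies the ribosome with charged tRNA. Cytosolic and mitochondrial protein synthesis use separate enzymes for most amino acids, all encoded in the nucleus, and Gars and Kars serve both compartments from 1 gene. Qars is placed with them by the grouping used here, although mammalian mitochondria obtain glutaminyl-tRNA by another route, through Ears2 and an amidotransferase. In mammals Dars, Eprs, Iars, Kars, Lars, Mars, Qars and Rars are held together in a multi-synthetase complex with 3 scaffold proteins. Several cytosolic synthetase genes are known targets of Atf4, the transcription factor of the amino acid response, which binds C/EBP-ATF response elements, and mTor signalling is known to raise Atf4.

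Promoters are shown because a group of synthetases moved together in 2i. RefSeq promoters (GRCm38.p6, 250 bases before to 50 after the annotated start) were matched for 27 of the 36 genes. No sequence was matched for Cars, Hars, Lars, Nars, Rars, Vars, Wars, Hars2 and Pars2. The letters TGATGNAA, a core of the C/EBP-ATF response element, were searched on both strands and each match is printed in capitals, as read on the gene's own strand. They occurred in Aars, Gars, Iars, Tars and Yars. The Aars window, chr8:111033592-111033891 on the plus strand, holds the motif at 2 places, with first bases at -112 and 10 from the annotated start.
Aars: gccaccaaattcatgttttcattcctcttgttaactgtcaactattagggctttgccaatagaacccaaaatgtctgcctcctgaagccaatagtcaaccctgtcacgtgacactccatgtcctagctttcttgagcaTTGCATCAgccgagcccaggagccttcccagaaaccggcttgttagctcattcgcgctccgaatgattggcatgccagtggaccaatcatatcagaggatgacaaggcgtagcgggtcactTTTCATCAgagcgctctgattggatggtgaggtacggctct
In Gars, chr6:55037751-55038050 on the plus strand, the first base lies at -30.
Gars: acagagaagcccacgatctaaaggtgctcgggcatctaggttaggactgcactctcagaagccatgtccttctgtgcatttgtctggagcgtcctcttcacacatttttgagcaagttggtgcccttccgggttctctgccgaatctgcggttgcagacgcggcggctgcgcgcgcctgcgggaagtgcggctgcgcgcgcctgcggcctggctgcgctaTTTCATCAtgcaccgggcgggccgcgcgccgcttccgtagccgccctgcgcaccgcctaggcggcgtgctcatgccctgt
In Iars, chr13:49681880-49682179 on the plus strand, it lies at 8.
Iars: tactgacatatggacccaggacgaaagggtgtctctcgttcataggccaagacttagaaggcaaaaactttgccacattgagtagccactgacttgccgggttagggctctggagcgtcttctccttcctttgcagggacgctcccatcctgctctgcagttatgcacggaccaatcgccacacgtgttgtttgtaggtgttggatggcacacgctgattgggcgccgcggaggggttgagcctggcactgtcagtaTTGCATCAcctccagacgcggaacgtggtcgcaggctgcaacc
In Tars, chr15:11399609-11399908 on the minus strand, it lies at -15.
Tars: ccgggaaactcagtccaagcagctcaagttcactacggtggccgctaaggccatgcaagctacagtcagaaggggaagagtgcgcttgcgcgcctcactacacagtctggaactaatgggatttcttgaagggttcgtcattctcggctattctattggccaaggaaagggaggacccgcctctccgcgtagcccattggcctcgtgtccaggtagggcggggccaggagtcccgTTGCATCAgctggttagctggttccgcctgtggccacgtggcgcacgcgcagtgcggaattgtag
In Yars, chr4:129189653-129189952 on the plus strand, it lies at 4.
Yars: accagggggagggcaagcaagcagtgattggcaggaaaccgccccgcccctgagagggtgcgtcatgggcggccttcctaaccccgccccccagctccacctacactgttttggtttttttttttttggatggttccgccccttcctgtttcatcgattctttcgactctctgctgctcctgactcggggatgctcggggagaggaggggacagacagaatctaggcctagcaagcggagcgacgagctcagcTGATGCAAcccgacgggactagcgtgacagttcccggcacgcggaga
A pair without the motif is shown for comparison. Fars2, the mitochondrial phenylalanine enzyme, was also higher in 2i and has the window chr13:36117393-36117692 on the plus strand.
Fars2: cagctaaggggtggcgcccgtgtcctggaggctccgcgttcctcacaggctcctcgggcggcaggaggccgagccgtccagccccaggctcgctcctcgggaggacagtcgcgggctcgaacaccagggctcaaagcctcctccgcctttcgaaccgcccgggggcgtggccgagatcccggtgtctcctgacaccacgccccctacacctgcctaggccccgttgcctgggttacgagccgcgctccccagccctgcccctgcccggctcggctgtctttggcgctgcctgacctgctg
Farsa, a cytosolic phenylalanine subunit, was lower in 2i and has the window chr8:84856736-84857035 on the plus strand.
Farsa: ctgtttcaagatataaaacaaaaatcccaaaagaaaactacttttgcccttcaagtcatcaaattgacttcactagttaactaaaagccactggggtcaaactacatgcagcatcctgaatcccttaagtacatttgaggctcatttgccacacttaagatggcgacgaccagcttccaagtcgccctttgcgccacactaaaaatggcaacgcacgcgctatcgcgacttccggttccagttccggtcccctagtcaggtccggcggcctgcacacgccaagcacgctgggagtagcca

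The motif stood in 5 of the 27 synthetase promoters, in 3.97% of all 32851 RefSeq mouse promoters of the same length and in 2.65% of the 9079 of tested genes. Of the 6 synthetases with a sequence that were called higher in 2i than in Serum (the call is defined with the results), 5 held it and Fars2 did not. It was found in 0 of the 6 called lower and in 0 of the 15 not called. The calls behind this split are unsteady. With 1 library left out in each of 9 fits, Aars and Iars kept theirs in 6, Tars and Yars in 3 and Gars in 2. Fars2, which lacks the motif, kept its call in all 9. On the authors' second column, described with the results, all 6 lost it. Cars and Nars, also called higher, had no sequence to search. Over all tested genes with a promoter, the motif stood in 3.29% of those called higher, 2.51% of those called lower and 2.46% of those not called. An E-box, CACGTG, which reads the same on both strands and shares no position with these matches, stood in Aars, Farsb, Iars, Tars and Ears2, 5 of 27, in 7.15% of all promoters and in 12.1% of those of tested genes. The letters CGCANGCG, the core of the element bound by Nrf1, stood in 10 of 27 synthetase promoters, in 8.21% of all and in 19.9% of those of tested genes. A match describes letters in a window and does not show binding.

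Across the 36 genes, the cytosolic transcripts were the more abundant. The median FPKM of the 17 cytosolic genes was 102 ± 5.64 (SD, n = 3) in Serum, 114.5 ± 19.4 in 2i and 92.6 ± 3.14 in Paused cells. For the 16 mitochondrial genes it was 20.7 ± 2.79, 17.2 ± 1.93 and 18.4 ± 2.41. The ratio of these medians was 4.94 ± 0.446 in Serum, 6.73 ± 1.56 in 2i and 5.08 ± 0.487 in Paused cells, and the libraries of 2i, from 5.77 to 8.53, lay above all 6 others. The summed FPKM of the cytosolic genes was 1865 ± 91.2, 2160 ± 383 and 1561 ± 125.5. Paused libraries, at most 1676, lay below all 3 Serum libraries, the lowest of which was at 1771. Without Lars2, which is described apart, the mitochondrial sum was 287 ± 13.7, 263.5 ± 11.7 and 282 ± 18.9, and in that sum each 2i library lay below every Serum library, while Paused libraries overlapped those of both other conditions. Wars2, the mitochondrial tryptophan enzyme, was the lowest of the 36, between 1.42 and 2.23 FPKM in the 9 libraries.

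**Figure D1:**
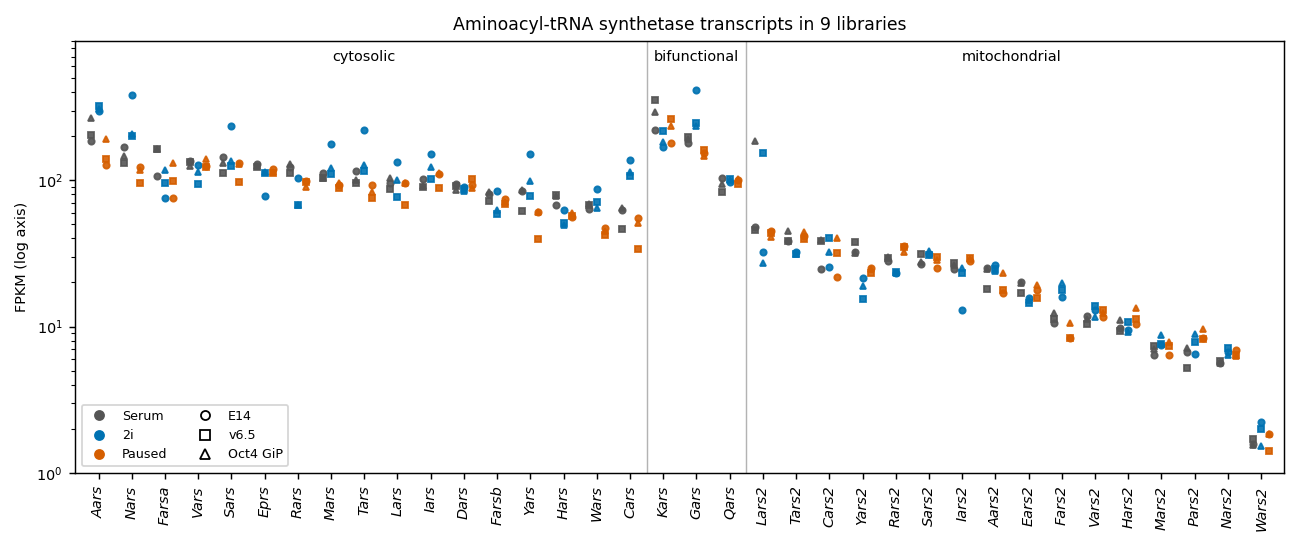
FPKM (log axis) of the 36 synthetase genes in each of the 9 libraries, with colour for condition and marker shape for cell line; genes are ordered by class and by mean level in Serum. Cytosolic and bifunctional genes sit between 34.1 and 414 FPKM, mitochondrial ones between 1.42 and 186.

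A gene was called when its adjusted p (limma-trend on log2(FPKM + 1) with the cell line as a block, Benjamini-Hochberg over 12711 tested genes) was under 0.05. Every log2 fold change is on that scale and is given ± its SE. In 2i against Serum, 6 of the 17 cytosolic genes rose (Aars, Cars, Iars, Nars, Tars and Yars) and 3 fell (Farsa, Hars and Rars). Of the 16 mitochondrial genes, 1 rose (Fars2) and 4 fell (Ears2, Rars2, Tars2 and Yars2); of the bifunctional genes Gars rose and Kars fell. Over all tested genes 21.7% were called higher and 18.9% lower in this comparison, so that 8 of 36 synthetases higher and 8 of 36 lower are shares close to the background. The median log2 fold change was 0.14 for the cytosolic genes, 0.05 for the mitochondrial genes and 0.02 for all tested genes. These medians moved with single libraries: with 1 library left out, the cytosolic median ran from 0.02 (without E14 2i) to 0.25 (without Oct4 GiP 2i), at 0.03 without E14 Serum, and the mitochondrial one from -0.04 (without v6.5 2i) to 0.13 (without Oct4 GiP 2i). In bulk RNA, fewer cells of a type and less RNA per cell cannot be told apart, and FPKM says nothing about RNA per cell. The authors' second column multiplies each library by 1 constant, 3.59 ± 0.172 in Serum, 2.80 ± 0.362 in 2i and 1.88 ± 0.095 in Paused cells (SD, n = 3). On that column the median of all genes moved to -0.33 in 2i against Serum, and of the cytosolic genes called higher on FPKM, Cars alone was still called (0.68). With each library centred on its median gene, 3 cytosolic genes were called higher and 5 lower.

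**Figure D2:**
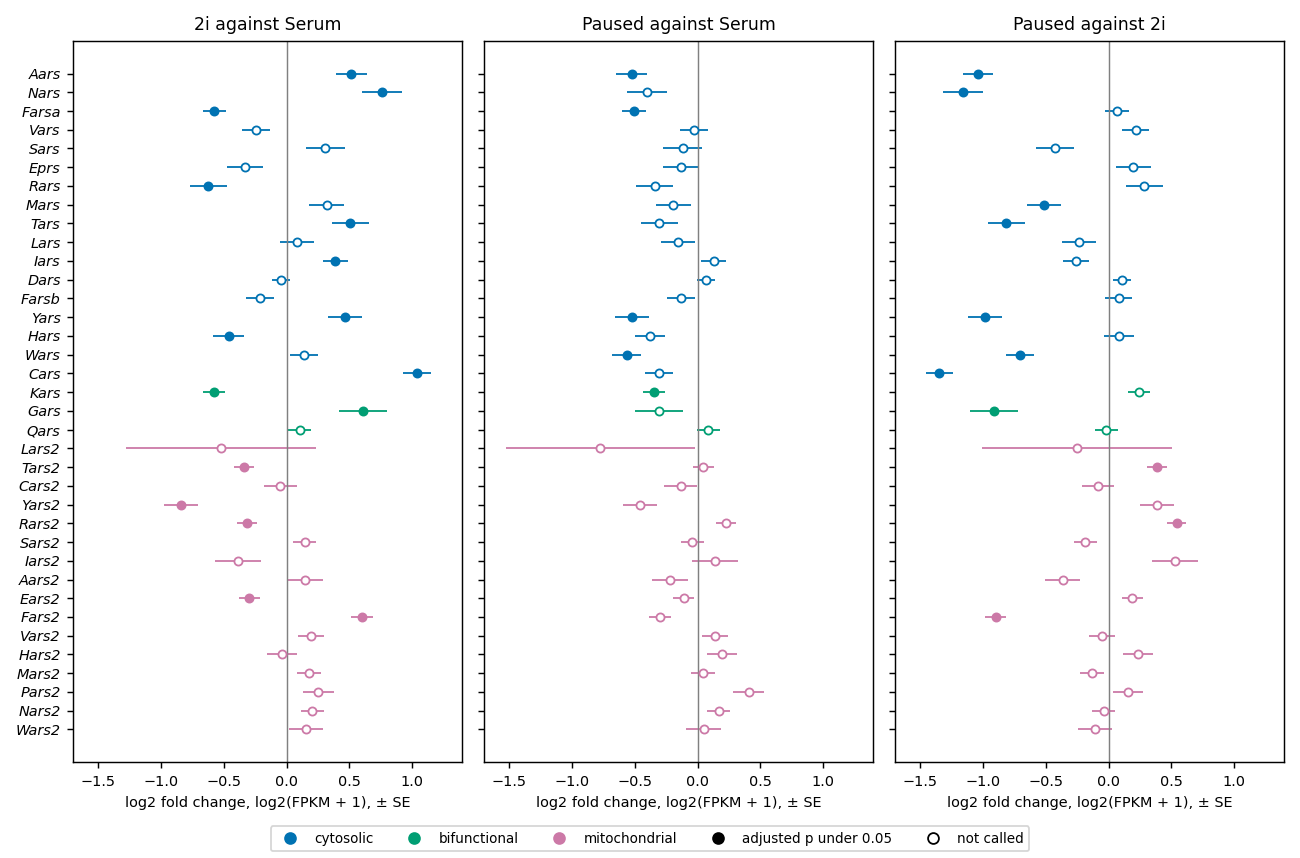
Log2 fold change on the log2(FPKM + 1) scale, ± SE, of each synthetase in 3 comparisons, from the limma fit to 9 libraries; filled points have an adjusted p under 0.05. In 2i against Serum 8 genes are filled on each side, and in Paused against 2i 9 of the 11 filled points lie below 0.

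The cytosolic and bifunctional genes were also split by the multi-synthetase complex, and more of them act outside it than in it. Over all tested genes 21.7% were called higher and 18.9% lower in 2i against Serum. Of the 12 cytosolic or bifunctional genes outside the complex, 6 rose and 2 fell, with a median log2 fold change of 0.39. Of the 8 in the complex, 1 rose and 2 fell, with a median of 0.02. On the authors' column these counts were 1 higher and 4 lower outside the complex, and 0 higher and 4 lower in it. Without the E14 2i library the median was 0.20 outside the complex and -0.07 in it. The 6 called higher outside it became 2 without E14 Serum or v6.5 Serum and 3 without Oct4 GiP Serum or v6.5 Paused. The difference between the 12 and the 8 was not tested.

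Cars, the cysteine enzyme (chr7:143557230-143600090, minus strand, mm10), showed the largest rise among the 36. In the order E14, v6.5, Oct4 GiP, kept for all values by line, its FPKM was 62.8, 46.1 and 64.4 in Serum, 137, 106 and 114 in 2i, and 55.5, 34.1 and 51.3 in Paused cells. The 2i libraries stood above all others in every line. The log2 fold change in 2i against Serum was 1.04 ± 0.11 (adjusted p 0.0017). Nars, the asparagine enzyme, had 170, 130 and 147 FPKM in Serum, 384, 201 and 207 in 2i, and 123, 96.4 and 118 in Paused cells. Here too the conditions ran in 1 order in each line, Paused lowest and 2i highest, and E14 in 2i stood far above the other 2i libraries. Nars rose by 0.76 ± 0.16 in 2i (adjusted p 0.0121), and by 0.54 when the E14 2i library was left out.

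Aars, the alanine enzyme, was among the most abundant of the 36. Its FPKM was 187, 204 and 265 in Serum, 299, 322 and 308 in 2i, and 127, 139 and 190 in Paused cells. The 2i libraries lay close together and above every Serum library, and only Oct4 GiP in Paused cells reached the Serum range. The change in 2i was 0.52 ± 0.12 (adjusted p 0.0181). Aars shares exonic positions on the same strand with Exosc6, which stood at 51.9 ± 14.2 FPKM in 2i and fell there by 0.47 ± 0.09 (adjusted p 0.00787), so fragments in the shared positions are uncertain. Gars, the glycine enzyme of both compartments, had 180, 198 and 193 FPKM in Serum, 414, 248 and 236 in 2i, and 154, 162 and 146 in Paused cells. The 3 conditions did not overlap, and E14 in 2i stood apart from the other lines. Gars rose by 0.60 ± 0.19 in 2i (adjusted p 0.0455), and by 0.33 without the E14 2i library.

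Tars and Yars, the threonine and tyrosine enzymes, had the same shape at lower levels. Tars was at 95.6 to 116 FPKM in Serum, and at 219, 115 and 128 in 2i, with 93.1, 75.7 and 82.9 in Paused cells. It rose by 0.51 ± 0.15 in 2i (adjusted p 0.0331). In each line the 2i library was the highest and the Paused library the lowest. Yars was at 84.1, 61.8 and 85.1 FPKM in Serum, 151, 78.5 and 99.2 in 2i, and 61.1, 39.6 and 60.9 in Paused cells. It rose by 0.46 ± 0.14 in 2i (adjusted p 0.0348). The rises were 0.31 for Tars and 0.30 for Yars without the E14 2i library. Yars shares exonic positions on the opposite strand with C77080, which also rose in 2i (1.24 ± 0.21, adjusted p 0.00577) at 46.1 ± 9.07 FPKM, and whether fragments were counted by strand is not given. Iars, the isoleucine enzyme and the only complex member called higher, had 102, 89.6 and 91.9 FPKM in Serum and 151, 102 and 123 in 2i. The groups just separated, and it rose by 0.39 ± 0.10 (adjusted p 0.0235).

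**Figure D3:**
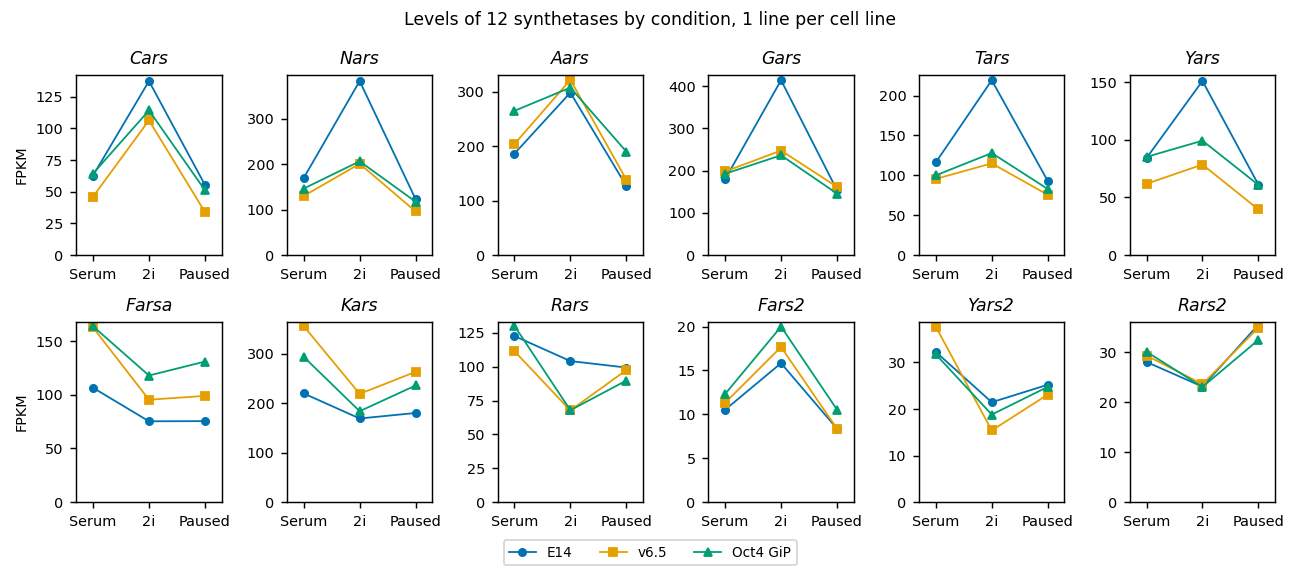
FPKM of 12 synthetases by condition, each cell line joined by a line, with axes from 0. The first 6 panels peak in 2i in every line, with E14 far above the other lines in Nars (384), Gars (414), Tars (219) and Yars (151); Farsa, Kars and Rars are highest in Serum in every line.

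The cytosolic and bifunctional genes that fell in 2i included the phenylalanine, lysine, arginine and histidine enzymes. Farsa, the catalytic subunit of the phenylalanine enzyme, was at 107, 163 and 164 FPKM in Serum, 75.3, 95.4 and 118 in 2i, and 75.5, 99.0 and 131 in Paused cells. Within each line both 2i and Paused cells were below Serum, although the groups overlap because E14 was low throughout. Farsa fell by 0.58 ± 0.09 in 2i (adjusted p 0.00529). Farsb, its partner subunit, changed by -0.21 ± 0.11 and was not called. Kars, the lysine enzyme, was at 220, 356 and 294 FPKM in Serum, 169, 219 and 184 in 2i, and 180, 263 and 236 in Paused cells. Its 2i libraries were the lowest of each line, and it fell by 0.58 ± 0.09 (adjusted p 0.00417). Rars, the arginine enzyme of the complex, fell by 0.62 ± 0.15 (adjusted p 0.0173), from 111 to 130 FPKM in Serum to 67.7 to 104 in 2i. Hars, the histidine enzyme, fell by 0.46 ± 0.12 (adjusted p 0.0247). Hars overlaps Hars2 on the opposite strand, so both are uncertain.

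Leaving out 1 library at a time tested how far these calls in 2i against Serum rest on single libraries. Of the 16 called, 6 were called in all 9 such fits, namely Cars, Nars, Farsa, Kars, Fars2 and Yars2. The other 10 kept their direction in all 9 fits and lost the call in at least 1 of them. The count of cytosolic genes called higher was 2 without E14 Serum, 3 without either other Serum library, and 4 to 6 without any other library. The count called lower was 5 without E14 2i and 1 without v6.5 2i, Oct4 GiP 2i, v6.5 Serum or Oct4 GiP Serum. For the mitochondrial genes called lower, it was 1 without v6.5 Serum, Oct4 GiP Serum or Oct4 GiP 2i, and 3 otherwise.

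In Paused against 2i, 7 of the 17 cytosolic genes fell (Aars, Cars, Mars, Nars, Tars, Wars and Yars) and 0 rose; at an unadjusted limma p under 0.05, 9 were lower and 0 higher. Gars fell among the bifunctional genes. Of the mitochondrial genes Fars2 fell, and Rars2 and Tars2 rose on FPKM, although both turned to -0.004 and -0.17 on the authors' column. Of all tested genes 24.6% were called lower and 19.8% higher, beside 9 of 36 synthetases lower and 2 of 36 higher, and 7 of 12 cytosolic or bifunctional genes outside the complex were lower, against 1 of 8 in it. The median log2 fold change was -0.76 outside the complex, 0.04 in it (-0.04 without E14 2i), and -0.03 for all tested genes. The 2i libraries enter both this comparison and that of 2i with Serum, so the same values of 2i stand behind both.

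Per gene, Cars fell by 1.35 ± 0.11 (adjusted p 0.000662), Nars by 1.16 ± 0.16 (0.00255) and Aars by 1.04 ± 0.12 (0.00166). Yars fell by 0.98 ± 0.14 (adjusted p 0.00255), and its opposite-strand neighbour C77080 fell by 1.70 ± 0.21 (adjusted p 0.00183). Gars, Tars, Wars and Mars fell by 0.91 ± 0.19, 0.81 ± 0.15, 0.71 ± 0.11 and 0.51 ± 0.14. Wars, the tryptophan enzyme, did not share the rise in 2i: it was at 63.9, 67.6 and 68.9 FPKM in Serum, 86.9, 71.1 and 64.5 in 2i, and 47.2, 42.2 and 45.0 in Paused cells. Its Paused libraries stood below all 6 others. Mars, the methionine enzyme, was at 103 to 112 FPKM in Serum, 110 to 177 in 2i and 89.2 to 96.0 in Paused cells. Iars (-0.26 ± 0.10, adjusted p 0.0755) and Sars, the serine enzyme (-0.43 ± 0.15, adjusted p 0.0639), did not pass the test. Aars, Cars, Nars, Tars, Wars, Yars, Fars2 and Rars2 were called in all 9 fits with 1 library left out. Gars and Tars2 lost the call without E14 Paused (adjusted p 0.0529 and 0.0524), and Mars lost it without any 1 of the 3 Paused libraries (adjusted p up to 0.101). The change of Mars was -0.33 without E14 2i. Exons of Mars overlap Ddit3 on the opposite strand, whose difference was -0.33 ± 0.21 and was not called.

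In Paused against Serum, the comparison of mTor inhibition with the Serum condition, 4 of the 17 cytosolic genes fell (Aars, Farsa, Wars and Yars) and Kars fell among the bifunctional genes. Of the 36, 0 rose, and 0 of the 16 mitochondrial genes were called in either direction, although 4 mitochondrial genes (Fars2 and Yars2 lower, Rars2 and Pars2 higher) had an unadjusted limma p under 0.05, as did 0 cytosolic genes on the higher side. Over all tested genes 10.5% were called lower and 7.64% higher. The cytosolic median log2 fold change was -0.31, the mitochondrial 0.05, and that of all tested genes -0.01. With 1 library left out the cytosolic median stayed between -0.36 and -0.22, and the mitochondrial between -0.01 and 0.06. By line, the cytosolic median was -0.33 in v6.5 and -0.27 in both E14 and Oct4 GiP. The mitochondrial median by line was -0.02 in v6.5, -0.01 in E14 and 0.08 in Oct4 GiP. In 13 of the 17 cytosolic genes the Paused library was the lower in all 3 lines, as it was in 32.4% of all tested genes, and in 8 of 17 the groups did not overlap, as in 21.3% of all tested genes. On the authors' column the median of all genes was -0.88, and 17 of 17 cytosolic, 15 of 16 mitochondrial and 3 of 3 bifunctional genes were called lower.

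The 5 genes that fell did so by similar sizes. Wars fell by 0.57 ± 0.11 (adjusted p 0.0242), Aars by 0.53 ± 0.12 (0.0344), Yars by 0.52 ± 0.14 (0.0448), Farsa by 0.51 ± 0.09 (0.0215) and Kars by 0.34 ± 0.09 (0.0431). Farsa and Kars had also fallen in 2i, while Aars and Yars had risen there and Wars was not called. These calls were close to the threshold and none of the 5 was called in all 9 fits that leave out 1 library, with adjusted p up to 0.169 for Yars. The count of cytosolic genes called lower was 0 without any 1 of the Paused libraries, without v6.5 Serum or without Oct4 GiP Serum, 1 without E14 Serum, 3 without v6.5 2i, 4 without Oct4 GiP 2i and 8 without E14 2i. With E14 Paused left out, 38 of the 12711 genes were called in this comparison at all. The fold changes of the 5 kept their sign in each of those fits, between -0.68 and -0.29.

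The remaining cytosolic and bifunctional genes were not called in any of the 3 comparisons. They are Dars, Eprs, Farsb, Lars, Qars, Sars and Vars, the enzymes of aspartate, glutamate with proline, phenylalanine (the second subunit), leucine, glutamine, serine and valine. Dars was the steadiest, at 85.0 to 102 FPKM in the 9 libraries. Eprs was at 123 to 129 FPKM in Serum and 111 to 119 in Paused cells, and in 2i E14 was at 78.0 while the other lines were at 112 and 114. Lars was at 134 FPKM in E14 in 2i and at 76.3 and 100.2 in the other 2i libraries. Sars was at 236 FPKM in E14 in 2i, against 125 and 136.

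Among the mitochondrial enzymes, Fars2 had the pattern of the cytosolic genes that rose in 2i. It was at 10.5, 11.3 and 12.3 FPKM in Serum, 15.8, 17.7 and 20.0 in 2i, and 8.37, 8.37 and 10.5 in Paused cells. Its 2i libraries lay above all 6 others. Fars2 rose by 0.60 ± 0.09 in 2i (adjusted p 0.00362) and was lower in Paused than in 2i by a log2 fold change of -0.90 ± 0.09 (adjusted p 0.000971). Its exons overlap those of Lyrm4 and Nrn1 on the opposite strand; Lyrm4 changed by -0.25 ± 0.13 in 2i and Nrn1 stayed under 1 FPKM.

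Yars2, Rars2, Tars2 and Ears2, the tyrosine, arginine, threonine and glutamate enzymes of mitochondria, fell in 2i. Yars2 was at 32.3, 37.7 and 31.7 FPKM in Serum, 21.5, 15.4 and 18.8 in 2i, and 25.2, 23.1 and 24.8 in Paused cells. Its 3 conditions did not overlap, and it fell by 0.84 ± 0.13 in 2i (adjusted p 0.00502). Rars2 was at 28.1, 29.4 and 30.1 FPKM in Serum, 23.1, 23.6 and 23.1 in 2i, and 35.5, 34.9 and 32.5 in Paused cells. Again no libraries overlapped, with Paused cells the highest on this scale. Rars2 fell by 0.31 ± 0.08 in 2i (adjusted p 0.0212) and was higher in Paused than in 2i by 0.54 ± 0.08 (adjusted p 0.00305). Tars2 fell by 0.34 ± 0.08 in 2i (adjusted p 0.0194) and was higher in Paused than in 2i by 0.38 ± 0.08 (adjusted p 0.0114), against -0.17 on the authors' column. Ears2 fell by 0.30 ± 0.08 in 2i (adjusted p 0.0322), a call kept in 1 of the 9 fits that leave out 1 library. Exons of Ears2 overlap Ubfd1 on the opposite strand, so its values are uncertain. Ubfd1 was at 31.0 ± 7.12 FPKM in 2i and changed there by -0.26 ± 0.12, which was not called.

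Aars2, Cars2, Hars2, Iars2, Lars2, Mars2, Nars2, Pars2, Sars2, Vars2 and Wars2 were not called in any comparison. Iars2 was at 12.9 FPKM in E14 in 2i, and between 23.2 and 29.5 in the other 8 libraries. Its exons overlap Rab3gap2 on the opposite strand, so its values are uncertain. Rab3gap2 was at 4.45 FPKM in E14 in 2i and between 8.93 and 17.9 in the other 8. Pars2, the proline enzyme, was at 5.22 to 7.15 FPKM in Serum and 8.16 to 9.55 in Paused cells, groups that do not overlap, with a change of 0.41 ± 0.12 (adjusted p 0.0652).

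Pairing each cytosolic enzyme with the mitochondrial enzyme of the same amino acid gave ratios that separated in both directions. How often other pairs of genes separate in this way was not computed, so these counts have no background share. There are 17 such pairs, counting Farsa and Farsb each against Fars2 and Eprs against Ears2 and Pars2. In 2i against Serum the ratio of the 2 FPKM values was higher without overlap in 5 pairs (Aars, Cars, Iars, Tars and Yars) and lower without overlap in 5 (Hars, Vars, Farsa, Farsb, and Eprs over Pars2). The ratio of Yars to Yars2 was 2.31 ± 0.581 in Serum, 5.80 ± 1.07 in 2i and 2.2 ± 0.419 in Paused cells (SD, n = 3). In that pair the cytosolic gene rose and the mitochondrial gene fell in 2i. The ratio of Farsa to Fars2 went the other way, at 12.6 ± 2.21, 5.35 ± 0.573 and 11.1 ± 1.82. Between Paused cells and Serum the ratio was higher in 0 pairs and lower in 5 (Hars, Nars, Rars, Wars, and Eprs over Pars2), the other 12 overlapping. Single genes separated on the lower side in 21.3% of all tested genes in that comparison. In Paused against 2i the ratio was higher in 2 pairs and lower in 8, with 7 overlapping. With 3 libraries a group the exact permutation test of a ratio cannot give a p under 0.1, and these ratios were compared by overlap alone. A ratio within a library is the same on FPKM and on the authors' column.

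Lars2, the mitochondrial leucine enzyme, differed widely between the libraries of Serum and of 2i, and little between those of Paused cells. It was at 48.1, 45.9 and 186 FPKM in Serum, 32.5, 153 and 27.1 in 2i, and 45.1, 43.5 and 40.8 in Paused cells. The high libraries were Oct4 GiP in Serum and v6.5 in 2i. Rn45s, the 45S precursor of ribosomal RNA, was at 500, 354 and 1301 FPKM in Serum, 361, 869 and 293 in 2i, and 426, 388 and 416 in Paused cells, high in the same libraries. Over the 9 libraries, Pearson's r of log2 Lars2 and log2 Rn45s was 0.97, and Lars2 ranked 2 of 12137 genes by r with Rn45s, after Mir6236. This is a description over libraries that share conditions and lines, and the part of ribosomal RNA in the Lars2 values was not tested. Its fold changes had an SE of 0.75, and none was called.

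**Figure D4:**
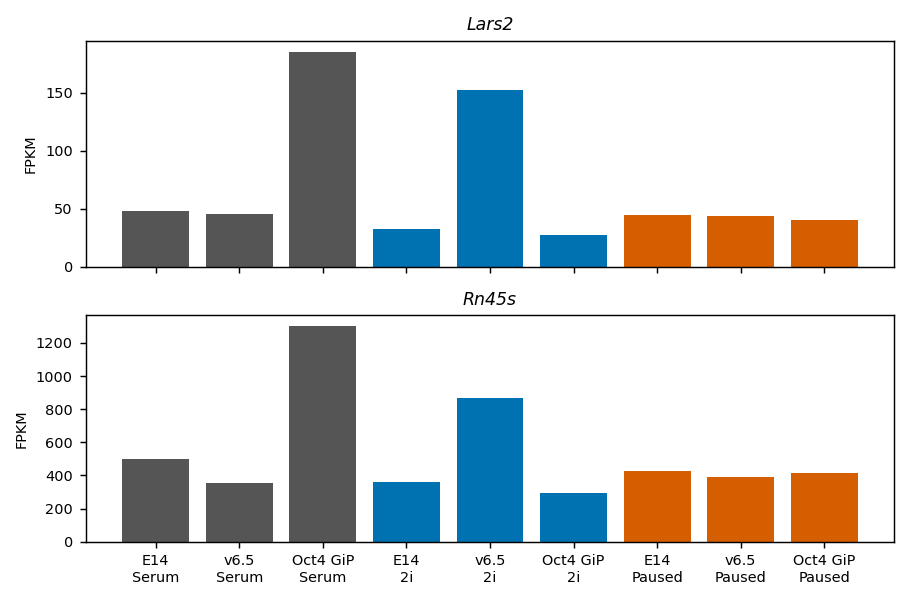
FPKM of Lars2 (top) and of the ribosomal RNA precursor Rn45s (bottom) in each library, with bars from 0 and colour for condition. Oct4 GiP in Serum (186 and 1301 FPKM) and v6.5 in 2i (153 and 869 FPKM) are the highest bars in both panels.

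Few synthetases were called between the 3 lines once the condition was accounted for. An F test over the lines in the same limma fit called 1 of the 36, Farsa (adjusted p 0.049), beside 1.5% of all tested genes. E14 had the lowest Farsa of the lines in each condition. Kars was called higher in v6.5 than in E14, by 0.54 ± 0.09 (adjusted p 0.043), beside 1.53% of all tested genes. Oct4 GiP was not called apart from either other line for any synthetase. The line v6.5 was the lowest in every condition for 10 of the 36, E14 for 7 and Oct4 GiP for 2. How often this holds over all tested genes was not computed, so these counts have no background share. In 2i, E14 was the highest library for 14 of the 17 cytosolic genes, against 43.5% of all tested genes. The cytosolic median log2 fold change in 2i against Serum was 0.49 for the line E14, 0.07 for v6.5 and -0.01 for Oct4 GiP. The mitochondrial medians, with the lines taken likewise, were 0.001, 0.11 and -0.05. A difference between lines in the response to a condition has no residual degrees of freedom here and was not tested.

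Genes around the synthetases were put into 3 lists, chosen with earlier results of these data known. Their counts describe the listed genes and are not independent support. The amino acid response, taken without the synthetases, comprises Atf4, genes it is known to drive, and regulators above it such as the kinase Eif2ak4, which itself rose in 2i. Of its 39 tested genes 25 rose and 1 fell in 2i against Serum, with a median log2 fold change of 0.96, beside 21.7% and 18.9% of all tested genes, and the counts were 21 and 5 on the authors' column. In Paused against 2i, 30 fell and 3 rose (median -1.64), and in Paused against Serum 11 fell and 0 rose (median -0.40). Of all tested genes, 24.6% were lower and 19.8% higher in Paused against 2i. In Paused against Serum, 10.5% were lower and 7.64% higher. Those 11 became 0 without any 1 Paused library or without Oct4 GiP Serum, 6 with no line block and 37 on the authors' column, and the 3 that rose against 2i became 1 without any 1 Paused library. Asns, which makes asparagine, was at 172, 79.6 and 93.4 FPKM in Serum, 634, 535 and 355 in 2i, and 100.3, 82.9 and 63.8 in Paused cells. In each line the 2i library was far the highest, and Asns rose by 2.17 ± 0.18 (adjusted p 0.00105). Jdp2, Nupr1 and Pck2, a transcription factor, a stress-response chromatin protein and the mitochondrial phosphoenolpyruvate carboxykinase, rose by 3.40 ± 0.23, 3.37 ± 0.19 and 2.56 ± 0.15. Among those lower in Paused cells than in Serum, Ddit4, a stress-induced inhibitor of mTor signalling, fell by 2.07 ± 0.30 and Nupr1 fell by 1.41 ± 0.19. Atf3, a stress-induced transcription factor, fell by 1.36 ± 0.22, and Mthfd2, a mitochondrial folate enzyme, fell by 1.33 ± 0.28. E14 was the highest 2i library for 33 of the 39, as it was for most cytosolic synthetases.

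**Figure D5:**
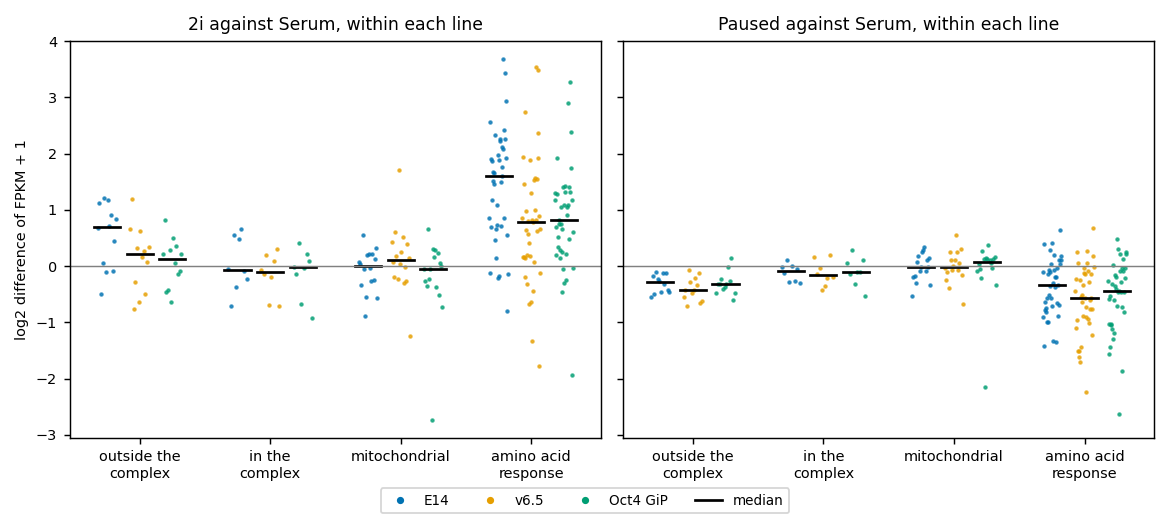
Log2 difference of FPKM + 1 within each cell line, 2i against Serum (left) and Paused against Serum (right), for cytosolic or bifunctional synthetases outside and in the multi-synthetase complex, mitochondrial synthetases and amino acid response genes; points are genes and black bars medians. Outside the complex the medians in 2i are 0.69 for E14, 0.21 for v6.5 and 0.13 for Oct4 GiP, and in the complex they are -0.07, -0.10 and -0.03.

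The second list holds the scaffold of the synthetase complex and other charging factors. Of its 17 tested genes 0 rose and 8 fell in 2i against Serum, the same counts as at an unadjusted limma p under 0.05. Of all tested genes 21.7% were higher and 18.9% lower there. The 8 became 5 without v6.5 2i or Oct4 GiP 2i. Dtd1, an enzyme that removes D-amino acids from tRNA, fell by 1.71 ± 0.30. The scaffold proteins Aimp2 and Eef1e1 fell by 0.69 ± 0.11 and 0.49 ± 0.14. Paused cells against Serum gave 4 that fell and 1 that rose: Aimp2 (-0.75 ± 0.11), Tufm, the mitochondrial elongation factor that delivers charged tRNA (-0.69 ± 0.07), and Pstk, a kinase of the selenocysteine route (-0.56 ± 0.10), were among the lower, and Sepsecs, the next enzyme of that route, rose (0.52 ± 0.10). Against 2i, 5 rose and 4 fell in Paused cells, with Dtd1 higher by 1.19 ± 0.30, Secisbp2, a factor of selenocysteine insertion, higher by 0.47 ± 0.09, and Pstk at -0.48 ± 0.10. Of all tested genes 19.8% were higher and 24.6% lower against 2i, beside 5 and 4 of the 17. Against Serum 7.64% were higher and 10.5% lower. On the authors' column the counts of this list were 1 higher and 9 lower against 2i, and 0 higher and 16 lower against Serum. The calls against Serum became 0 higher and 0 lower without any 1 Paused library or without Oct4 GiP Serum, 0 and 2 without v6.5 Serum, and 0 and 3 without E14 Serum. Those against 2i became 2 and 2 without v6.5 Paused or Oct4 GiP Paused, 3 and 2 without E14 Paused, 2 and 3 without v6.5 2i or Oct4 GiP 2i, and 5 and 2 without E14 2i.

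The third list holds genes of tRNA maturation, 35 of them tested. In 2i against Serum 1 rose and 14 fell, beside 21.7% of all tested genes higher and 18.9% lower, and the median was -0.28. The 14 became 9 without Oct4 GiP Serum. Pop1, a subunit of RNase P and RNase MRP, fell by 1.55 ± 0.12, the tRNA methyltransferase Nsun2 by 1.13 ± 0.11, the RNase P subunit Rpp38 by 0.79 ± 0.13, and Elac2, which trims tRNA 3′ ends, by 0.78 ± 0.13. In Paused against 2i 11 rose and 5 fell (7 and 4 with no line block, 7 and 3 without Oct4 GiP 2i, 7 and 5 without Oct4 GiP Paused, 8 and 2 without E14 Paused, 8 and 3 without v6.5 Paused or v6.5 2i, and 11 and 3 without E14 2i), Pop1 and Nsun2 being higher by 1.16 ± 0.12 and 0.78 ± 0.11, while Adat2, a tRNA deaminase subunit, and Pus1, a pseudouridine synthase, stood at -1.04 ± 0.19 and -0.67 ± 0.09. Between Paused cells and Serum 2 fell, Wdr4 (-0.56 ± 0.11) and Trmt6 (-0.32 ± 0.07), both subunits of tRNA methyltransferases, and 1 rose, Maf1 (0.52 ± 0.12), a repressor of RNA polymerase III that mTor is known to hold inactive. These 3 calls became 0 without any 1 Serum or Paused library, and the 2 lower became 11 without E14 2i, 4 without v6.5 2i and 1 without Oct4 GiP 2i, where 0 were higher. Of all tested genes 19.8% were higher and 24.6% lower in Paused against 2i, and 7.64% and 10.5% in Paused against Serum. The 1 higher and 2 lower of 35 against Serum do not exceed those shares. On the authors' column the counts of this list were 0 higher and 23 lower in 2i against Serum. They were 1 and 18 in Paused against 2i, and 0 and 34 in Paused against Serum.

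The summed markers of embryonic stem cells were high in every library, and those of trophoblast and feeders were highest in Serum. The summed FPKM of 6 stem cell markers (Pou5f1, Sox2, Nanog, Zfp42, Dppa5a and Sall4) was 3163 to 4753 in Serum, 3435 to 4042 in 2i and 4847 to 5568 in Paused cells, and 0 of the 6 were below 1. Every Paused sum lay above those of Serum and 2i. In v6.5 Serum Nanog was at 42.8 and Zfp42 at 99.8 FPKM. In E14 Serum they were at 239 and 600, and in Oct4 GiP Serum at 185 and 722. The 6 trophoblast markers summed to 45.7 to 279 in Serum, 12.7 to 16.2 in 2i and 6.67 to 23.9 in Paused cells. Krt8 and Krt18 made up most of this, at 161 and 108 FPKM in E14 Serum, the highest library, while Elf5, Hand1, Cdx2 and Krt7 were under 5 in every library. The 7 fibroblast feeder markers summed to 26.7 to 125, 1.47 to 2.67 and 4.82 to 11.1, with 4, 6 and 5 of the 7 below 1 in all libraries of the condition. Tagln made up most of the feeder sum in Serum, at 114 FPKM in E14. The 5 endoderm markers summed to at most 4.55 in any library, with overlap between the conditions. Their part in the synthetase differences was not tested. All 9 libraries share 1 fit, so the Serum libraries also enter the spread behind the adjusted p of Paused against 2i. Depth per library is unknown, since the table holds no counts.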

How the data were processed

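The members and the gene lists were chosen with earlier results of these data known. The authors deposited 1 table with an FPKM column and a second column per library, a signal equal to that FPKM multiplied by 1 constant per library. Cuffnorm and the mm10 build are named per the submitters' processing notes. The aligner, gene annotation, use of strand in counting and origin of the constants were not given in the sources used here; a directional kit was used, per the labels. FPKM is relative within a library, so it cannot show a change in total RNA. An exact 0 can be a failed estimate, since Eef1a1 is listed at 0 in every library. Depth is unknown.

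Of 29801 rows, 5644 (18.9%) carry no gene name and were left out, as were 113 identical repeats. The 12711 genes tested were those with FPKM of at least 1 in at least 3 libraries. Their log2(FPKM + 1) entered a limma-trend model (R 4.3.3 with limma 3.58.1) with terms for condition and cell line and 4 residual degrees of freedom. P-values were adjusted by Benjamini-Hochberg, with a threshold of 0.05. They set the mean condition difference against a residual spread that is moderated over genes. With 1 library per line and condition, that spread mixes differences between lines in the response with library noise. Pairing comes from the labelled line: deviations from condition means correlated at -0.001 to 0.401 between libraries of 1 line, and at -0.243 to 0.094 between lines.

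All synthetases are named. Listed genes are named when called, at most 4 per list and comparison with the largest change; neighbours that overlap a synthetase, Rn45s and Mir6236 were added after their values were seen. Of the listed genes, 1 is not reported here. Alternatives were a fit with no line block, a pseudocount of 0.1, no filter, the authors' second column, centring on the median gene, the libraries of 2 conditions only, and leaving out each library or line. Correcting each library for transcript length and GC was added after seeing the data. Exon overlaps come from a GENCODE annotation of mm10.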

Additional observations from a re-analysis of the deposited data

Results flagged for a closer look

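Lars2 moved in opposite directions between lines in 2i against Serum. The log2 difference was 1.71 in v6.5 and -2.73 in Oct4 GiP, with 1 library per line and condition. The difference was not tested, since a term for line by condition leaves no residual degrees of freedom. Rn45s was high in the same libraries, and its part in the Lars2 values was not tested. Single libraries that stand apart were not searched for by a test, because each group holds 3 libraries.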

How the results depend on the processing

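The limits are the 3 libraries per condition, unknown depth and the scale. Direction was kept by all called synthetases in every alternative except for Rars2 and Tars2 on the authors' column. Alternatives not named here changed no count of cytosolic or mitochondrial calls by over 1.5 times.

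In Paused against Serum, the 4 cytosolic genes called lower became 1 with no replicate block or with no filter, 7 with the libraries of the 2 conditions alone, 17 on the authors' column and 0 without line E14, v6.5 or Oct4 GiP. Leaving out 1 library gave 0 to 8. Mitochondrial genes called lower went from 0 to 1 with no filter, with centring or with 2 conditions alone, and to 15 on the authors' column (0 to 2 leaving out 1 library); called higher, they went from 0 to 1 with the length and GC correction (0 to 1 leaving out 1 library).

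In 2i against Serum, the 6 cytosolic genes called higher became 3 with no replicate block or with centring, 2 with no filter or 2 conditions alone, 1 on the authors' column, and 2, 1 and 2 without line E14, v6.5 and Oct4 GiP (2 to 6 leaving out 1 library). The 3 called lower became 1 with no filter or 2 conditions alone, 7 on the authors' column, 5 with centring, and 1 and 0 without line v6.5 and Oct4 GiP (1 to 5). The 4 mitochondrial genes called lower became 1 with 2 conditions alone, and 1, 1 and 0 without line E14, v6.5 and Oct4 GiP (1 to 3); Fars2, called higher, gave 0 on the authors' column and without Oct4 GiP (1 to 2).

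In Paused against 2i, the 7 cytosolic genes called lower became 14 on the authors' column (6 to 8), and 0 called higher became 1 without line E14 (0 to 1). The 2 mitochondrial genes called higher became 0 on the authors' column, 5 with centring, and 1 without v6.5 or Oct4 GiP (1 to 4); the 1 called lower became 8 on the authors' column and 2 with the length and GC correction.

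Signs changed on the authors' column for 39 of the 108 fold changes, and 48 times over all other alternatives, in genes not called on either side. The values that turned and were called on at least 1 side did so on the authors' column. In Paused against Serum these were Dars -0.86, Iars -0.80, Qars -0.84, Hars2 -0.70, Iars2 -0.78, Mars2 -0.83, Nars2 -0.69, Pars2 -0.45, Rars2 -0.69, Tars2 -0.88, Vars2 -0.76 and Wars2 -0.69. In Paused against 2i these were Dars -0.46, Eprs -0.36, Farsa -0.49, Farsb -0.48, Rars2 -0.004 and Tars2 -0.17. The constants differ between conditions, which shifts genes in the same direction, by less at low FPKM because 1 is added before the logarithm.

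For the related lists, further counts under the alternatives were these. With the libraries of 2 conditions alone, tRNA maturation in 2i against Serum gave 8 lower and charging factors 5. With no filter on low values the amino acid response gave 7 lower in Paused against Serum, and the synthetases outside the complex gave 2 higher in 2i against Serum. Without line E14, v6.5 or Oct4 GiP, each of the 3 lists gave 0 calls in Paused against Serum. In 2i against Serum, tRNA maturation gave 5 lower without v6.5 and 3 without Oct4 GiP, and charging factors gave 5, 3 and 1 without E14, v6.5 and Oct4 GiP. In Paused against 2i, tRNA maturation gave 3 higher and 3 lower without v6.5 and 2 and 1 without Oct4 GiP, and charging factors gave 3 and 0 and then 0 and 0.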
